A study of Homo sapiens with 4 samples.

Results

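The AP-1, ATF3 and EGR immediate early transcription factor genes were followed in each of 4 RNA-seq libraries of endothelial cells grown from H1, a human embryonic stem cell line. They were taken by symbol: FOS, FOSB, FOSL1, FOSL2, JUN, JUNB, JUND, ATF3, EGR1 and EGR2, 10 of 19912 genes in the deposited count table. The cells carried a GATA2/eGFP reporter and were positive for it. They came from GFI1 knockout cells (GFI1-KO, 2 libraries) and from wild-type cells (WT, 2 libraries). GFI1 is a transcriptional repressor needed when hemogenic endothelium gives rise to blood cells. The sources used here do not give the knockout allele, the number of clones behind each genotype or the day of collection.

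AP-1 is a dimer of a JUN protein (JUN, JUNB, JUND) with another JUN, with a FOS protein (FOS, FOSB, FOSL1, FOSL2) or with an ATF protein such as ATF3, joined through leucine zippers. EGR1 and EGR2 are zinc-finger factors. Most of these genes are immediate early genes: signals through MAP kinases, serum response factor and CREB raise their transcription within minutes, without new protein synthesis, and their transcripts decay fast. JUND is the exception among the JUN genes, being transcribed steadily in many cells. In endothelium these genes are known to respond to growth factors, to shear stress and to the handling of cells during dissociation and sorting.

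The promoter windows below are shown because 4 of these genes, EGR1, FOS, FOSB and JUNB, differed together between replicates, and because JUND stayed nearly level. The sequences are RefSeq's (GRCh38.p14), 5′ to 3′ on the gene's strand, from the 250 bases before the RefSeq start, less any base inside a GENCODE model of the gene. EGR1 lies on the plus strand (window chr5:138465229-138465478), as do FOS (chr14:75278578-75278773), FOSB (chr19:45467746-45467994) and JUNB (chr19:12791236-12791485), while JUND lies on the minus strand (chr19:18281623-18281872). Capitals mark the CArG box, the sequence that serum response factor binds, and TGACGT on either strand, the core of the cyclic AMP response element that CREB and ATF proteins bind.
EGR1: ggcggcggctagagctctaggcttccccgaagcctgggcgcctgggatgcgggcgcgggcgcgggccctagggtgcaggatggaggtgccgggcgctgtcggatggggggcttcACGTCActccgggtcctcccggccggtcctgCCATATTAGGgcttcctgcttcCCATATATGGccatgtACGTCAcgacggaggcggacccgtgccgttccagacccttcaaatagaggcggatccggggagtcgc
FOS: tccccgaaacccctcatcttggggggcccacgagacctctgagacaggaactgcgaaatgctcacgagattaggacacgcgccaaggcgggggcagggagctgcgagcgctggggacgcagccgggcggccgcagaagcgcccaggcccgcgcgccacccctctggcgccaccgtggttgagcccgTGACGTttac
FOSB: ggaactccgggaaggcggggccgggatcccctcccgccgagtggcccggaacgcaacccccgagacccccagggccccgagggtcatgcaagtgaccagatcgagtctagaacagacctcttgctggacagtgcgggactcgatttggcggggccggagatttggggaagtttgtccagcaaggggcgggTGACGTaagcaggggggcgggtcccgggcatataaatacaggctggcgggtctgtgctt
JUNB: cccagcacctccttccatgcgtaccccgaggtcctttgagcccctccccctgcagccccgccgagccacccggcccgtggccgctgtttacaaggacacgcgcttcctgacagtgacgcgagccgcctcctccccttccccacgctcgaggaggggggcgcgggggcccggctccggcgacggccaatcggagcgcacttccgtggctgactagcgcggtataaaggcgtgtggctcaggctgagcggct
JUND: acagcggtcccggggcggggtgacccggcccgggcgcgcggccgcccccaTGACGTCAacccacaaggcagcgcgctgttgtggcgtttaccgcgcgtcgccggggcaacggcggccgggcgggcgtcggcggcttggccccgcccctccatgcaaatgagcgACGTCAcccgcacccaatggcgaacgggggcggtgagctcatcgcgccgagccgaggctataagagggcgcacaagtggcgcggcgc

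Promoter windows were found for 9 of the 10 genes, 12 windows in all. Motifs were searched on both strands over the full 250 bases, and bases further upstream were not searched. A gene was counted when any of its windows held a match, whereas the shares over all windows count single windows. CArG boxes were present in windows of 2 of these 9 genes, EGR1 and EGR2, against 1.16% of all 35116 RefSeq windows of the same length. The EGR1 window held 2, at -105 to -96 and -83 to -74 from the RefSeq start. TGACGT was present in windows of 6 of the 9 genes (FOS, FOSB, FOSL2, JUND, EGR1 and EGR2), against 7.10% of all windows. In JUND 2 of its 3 matches overlap and form the palindrome TGACGTCA. The AP-1 site TGACTCA and the EGR site GCGTGGGCG were in windows of 0 of the 9 genes, against 4.2% and 0.72% of all windows. TATAAA was in windows of 4 of the 9 (FOS, FOSB, JUNB and ATF3), against 10.7% of all windows, and is not capitalised above. A match is a string of letters and does not show that a factor was bound.

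The libraries held 146584 and 2332621 counts in GFI1-KO replicates 1 and 2, and 2239214 and 2417410 counts in WT replicates 1 and 2. Levels are given as CPM, counts per 1000000 of the TMM-adjusted library total, and intervals are exact 95% Poisson intervals that cover counting error only. A floor of 3 counts was 19.9 CPM in GFI1-KO replicate 1 and 1.26 to 1.34 CPM in the other libraries. GFI1 itself was at 19.9 and 19.6 CPM in GFI1-KO and 58.5 and 58.3 CPM in WT (log2 fold change -1.57, SE 0.31, edgeR adjusted p = 0.0215), on 3 counts in GFI1-KO replicate 1. GATA2, whose reporter marks the cells, was at 139 and 124 CPM in GFI1-KO and 293 and 252 CPM in WT (log2 fold change -1.09, SE 0.24, edgeR adjusted p = 0.0376). DESeq2 called neither gene. The 8 endothelial markers summed to 7770 and 8867 CPM in GFI1-KO, against 5746 and 6041 CPM in WT. Both GFI1-KO libraries lay above both WT libraries for 7 of the 8 (18.6% of all tested genes). PECAM1 lay below (22.7% of all), at 344.5 and 324.0 CPM in GFI1-KO and 443.4 and 388.2 CPM in WT. Of the 8 markers, CD34 and EMCN rose and 0 fell, where 0.773% of all tested genes rose and 0.185% fell. Among 8 blood markers the pan-leukocyte gene PTPRC and the embryonic globin gene HBE1 had 0 counts in all 4 libraries. SPN, ITGA2B, SPI1 and LCP1 of the same list were tested, with 0 to 38 counts in GFI1-KO and 17 to 99 counts in WT. The pluripotency genes NANOG and PRDM14 also had 0 counts throughout, while LIN28A and DPPA4 of the same list were present in each library. Of 2 pluripotency, 4 blood, 8 mesenchymal and 5 epithelial markers tested, 0 passed in edgeR or DESeq2 (edgeR: 0, 2, 1 and 1 at an unadjusted p under 0.05), with median log2 fold changes of -0.35, -1.23, -0.21 and -0.23.

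With all 4 libraries, none of the AP-1, ATF3 and EGR genes passed the test between genotypes. Of the 9 that passed the low-count filter, 0 rose and 0 fell at an edgeR adjusted p under 0.05, where 0.958% of all 11380 genes tested were called, 0.773% higher and 0.185% lower. At an unadjusted p under 0.05 the count was 2, JUN and FOSL1, and DESeq2 called 0, with 0 at an unadjusted p under 0.05. The median log2 fold change of the 9 was 0.29, with 6 above 0, and that of all tested genes was -0.02. In bulk RNA, fewer cells with a transcript and less transcript per cell cannot be told apart. Whether the replicates were separate cultures is not in the labels, and the p-values cover the spread among these 4 libraries alone.

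**Figure D1:**
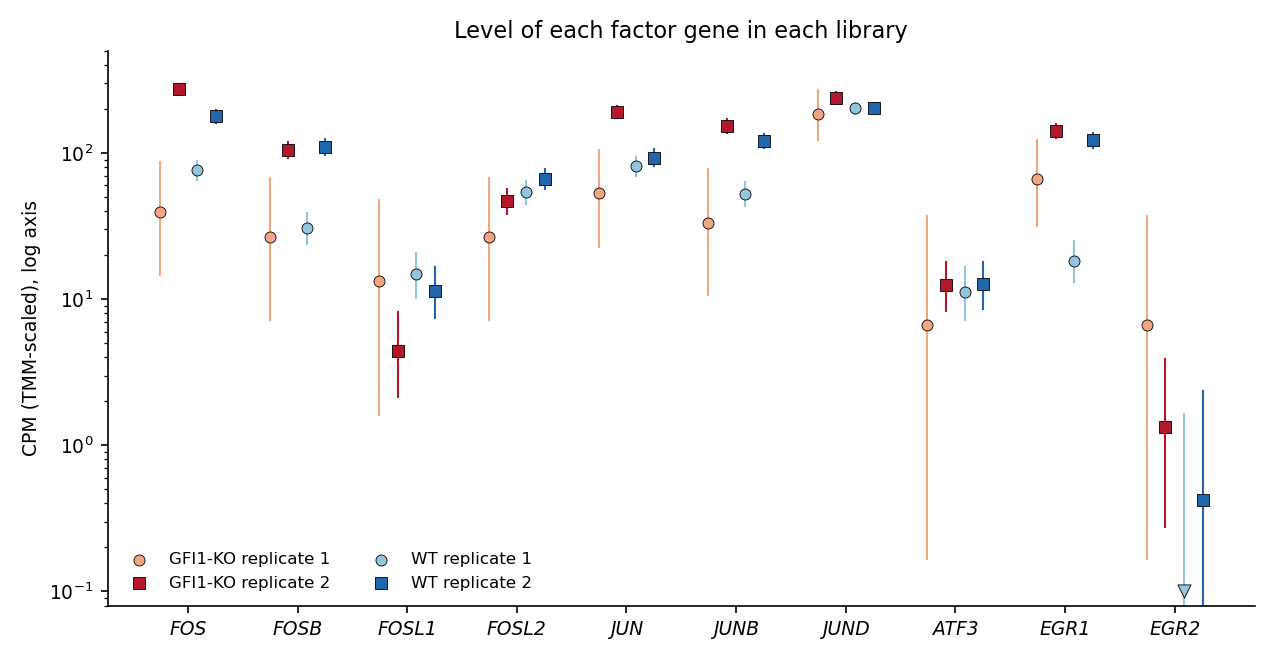
Level of each of the 10 genes in each library, as TMM-scaled CPM on a log axis, GFI1-KO in red and WT in blue, with exact 95% counting intervals as bars (drawn down to the lower edge of the axis); the triangle marks 0 counts. FOS, FOSB, JUNB and EGR1 lie higher in replicate 2 than in replicate 1 of both genotypes, while JUND lies between 186 and 239 CPM in each library.

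FOS, the founding partner of JUN in AP-1, was at 39.8 and 274 CPM in GFI1-KO replicates 1 and 2, against 75.9 and 178 CPM in WT replicates 1 and 2. The GFI1-KO libraries lay on either side of both WT libraries. These values rest on 6 and 615 counts in GFI1-KO and on 170 and 424 counts in WT. The log2 fold change was 0.65 (SE 0.43, edgeR adjusted p = 0.762). Within WT alone replicate 2 was 2.34 times replicate 1 (exact 95% interval 1.96 to 2.82), and within GFI1-KO 6.89 times (3.15 to 18.8). Set library against library, GFI1-KO replicate 2 was 1.54 times WT replicate 2 (1.36 to 1.75) and GFI1-KO replicate 1 was 0.524 times WT replicate 1 (0.190 to 1.16).

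FOSB, whose protein is close to FOS in its leucine zipper and has a well-known shortened form in neurons, was at 26.5 and 105 CPM in GFI1-KO and 30.8 and 110 CPM in WT. Here the libraries fell into 2 levels by replicate number and not by genotype. WT replicate 2 was 3.58 times WT replicate 1 (2.74 to 4.74), and GFI1-KO replicate 2 was 3.96 times GFI1-KO replicate 1 (1.53 to 14.7). Replicate 2 of the genotypes differed by less than counting error, with a GFI1-KO over WT ratio of 0.952 (0.795 to 1.14). The genotype log2 fold change was 0.29 (SE 0.45, edgeR adjusted p = 0.943).

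FOSL1 and FOSL2, which encode the FOS-related proteins FRA1 and FRA2, lack the strong activating region of FOS. FOSL1 was at 13.2 and 4.45 CPM in GFI1-KO and 14.7 and 11.3 CPM in WT. GFI1-KO replicate 1 lay between the WT libraries on 2 counts, and GFI1-KO replicate 2 lay below both, at 0.302 times WT replicate 1 (0.133 to 0.627) and 0.393 times WT replicate 2 (0.170 to 0.837). The log2 fold change was -1.30 (SE 0.57, edgeR adjusted p = 0.465). FOSL2 was at 26.5 and 46.7 CPM in GFI1-KO and 54.0 and 66.7 CPM in WT. It was the single tested member whose GFI1-KO libraries both lay below both WT libraries, where 22.7% of all tested genes did so, and 0 members had both above (18.6% of all). Its log2 fold change was -0.47 (SE 0.28, edgeR adjusted p = 0.695), and the GFI1-KO replicate 1 value rests on 4 counts.

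JUN differed from FOS in that the WT replicates were close. JUN, which can bind DNA as a dimer with itself, was at 53.0 and 190 CPM in GFI1-KO and at 81.3 and 92.7 CPM in WT. The GFI1-KO libraries flanked the WT libraries: GFI1-KO replicate 2 was 2.34 times WT replicate 1 (1.96 to 2.80) and 2.05 times WT replicate 2 (1.74 to 2.42), while the intervals of the GFI1-KO replicate 1 ratios, 0.652 (0.277 to 1.31) and 0.571 (0.244 to 1.15), held 1. The log2 fold change was 0.78 (SE 0.32, edgeR adjusted p = 0.390). Within WT, replicate 2 of JUN was 1.14 times replicate 1 (0.934 to 1.40).

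JUNB, a JUN protein that activates more weakly than JUN at many sites, was at 33.1 and 154 CPM in GFI1-KO and 52.7 and 121 CPM in WT. Its libraries had the same order as those of FOS. WT replicate 2 was 2.29 times WT replicate 1 (1.85 to 2.87), GFI1-KO replicate 2 was 4.64 times GFI1-KO replicate 1 (1.97 to 14.4), and the genotype log2 fold change was 0.48 (SE 0.39, edgeR adjusted p = 0.841). The JUNB exons overlap those of HOOK2 on the opposite strand by 259 bases of 1820, and the strand setting of the counting is not given in the sources used here. JUND was at 186 and 239 CPM in GFI1-KO, against 201 and 202 CPM in WT. Its WT replicates differed by a factor of 1.00 (0.881 to 1.14) and the log2 fold change between its genotypes was 0.13 (SE 0.22, edgeR adjusted p = 0.950).

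ATF3, a stress-induced factor of the ATF family, was low, at 6.62 and 12.5 CPM in GFI1-KO and 11.2 and 12.6 CPM in WT. The GFI1-KO replicate 1 value rests on 1 count, and the other 3 libraries held 25 to 30 counts. Its log2 fold change was -0.01 (SE 0.46, edgeR adjusted p = 0.999), and its WT replicates were within counting error (ratio 1.13, interval 0.641 to 2.0).

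EGR1, an early target of serum response factor, had the widest gap of the 9 tested genes between the WT replicates. It was at 66.2 and 142 CPM in GFI1-KO, against 18.3 and 122 CPM in WT. WT replicate 1, on 41 counts, stood below the other 3 libraries: its interval of 13.1 to 24.8 CPM did not reach that of GFI1-KO replicate 1 (31.8 to 122 CPM, 10 counts). WT replicate 2 was 6.65 times WT replicate 1 (4.78 to 9.46), and 13 of the 11380 tested genes had a larger ratio. GFI1-KO replicate 2 was 7.73 times WT replicate 1 (5.57 to 10.98) but 1.16 times WT replicate 2 (0.989 to 1.37). The genotype log2 fold change was 0.79 (SE 0.53, edgeR adjusted p = 0.770). EGR2, known for its role in myelinating cells and the hindbrain, had 1 and 3 counts in GFI1-KO and 0 and 1 in WT, all at or under the floor of 3 counts, and did not pass the low-count filter.

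The choice of libraries set the size and the sign of the genotype difference for most of these genes. Without WT replicate 1 the EGR1 log2 fold change was -0.05, and without WT replicate 2 it was 2.67 (SE 0.47). Without the shallow GFI1-KO replicate 1 the values of JUN and FOS were 1.13 (SE 0.25) and 1.10 (SE 0.24). Those of EGR1 and JUNB were 1.01 (SE 0.26) and 0.82 (SE 0.26) in the same fit. FOSL1 and FOSL2 were negative there, at -1.54 and -0.37. That fit leaves GFI1-KO with 1 library, assumed to vary like the WT pair. Without GFI1-KO replicate 2 the values of FOS, FOSB, JUN and JUNB turned negative, at -1.67, -1.41, -0.71 and -1.38.

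**Figure D2:**
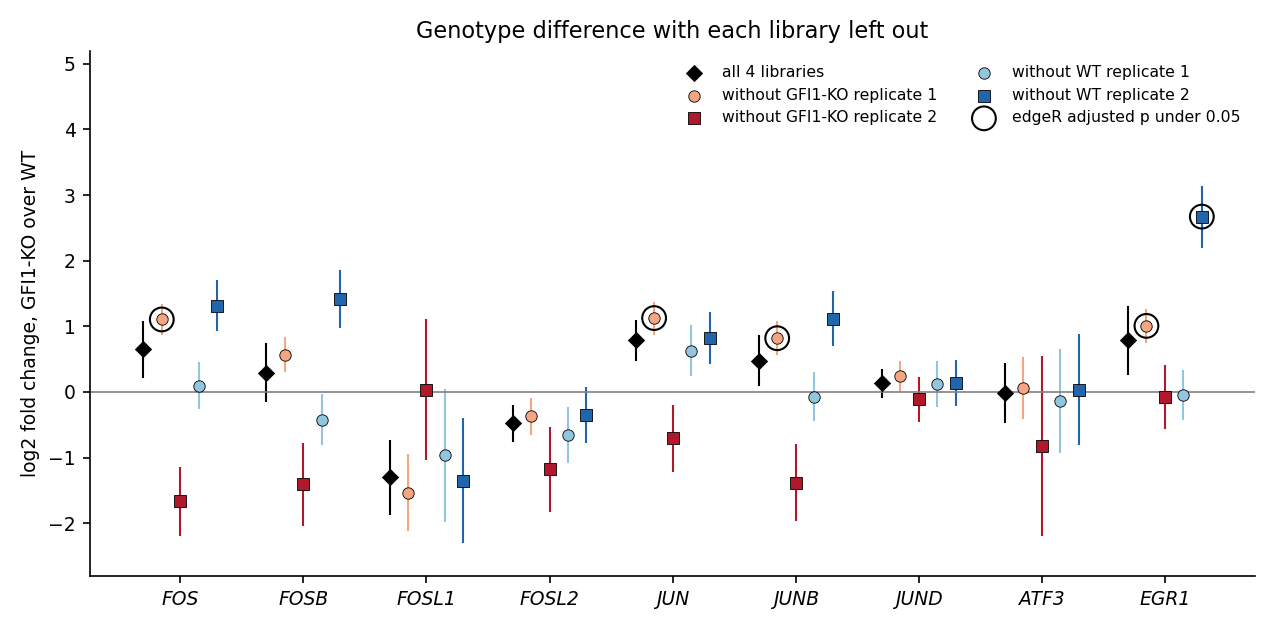
Log2 fold change of GFI1-KO over WT for the 9 tested genes with all 4 libraries (black) and with each library left out, bars giving the SE and rings marking an edgeR adjusted p under 0.05. FOS runs from -1.67 without GFI1-KO replicate 2 to 1.32 without WT replicate 2. EGR1 reaches 2.67 without WT replicate 2, and JUND stays between -0.11 and 0.24.

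Between replicates, FOS, FOSB, JUNB and EGR1 differed in the same direction in both genotypes. In WT, replicate 2 was at least 2-fold above replicate 1 for these 4 of the 9 tested genes, where 1.91% of all tested genes were; 0 were at least 2-fold lower (2.93% of all). In GFI1-KO, 5 of the 9 were at least 2-fold higher in replicate 2 (14.7% of all) and FOSL1 was at least 2-fold lower (8.95% of all), on 2 counts in replicate 1. The exact intervals lay above 1 in WT for the same 4 genes (13.2% of all), in GFI1-KO for those 4 and JUN (5.54% of all), and in both genotypes for the 4 (2.06% of all). Those 4 were also the ones at least 2-fold higher in replicate 2 of both genotypes (0.562% of all). Replicate 2 was above replicate 1 in both genotypes, by any amount, for 8 of the 9 genes (29.9% of all). These intervals compare pairs of libraries, not conditions. The WT replicate gap was larger than the genotype log2 fold change for 5 of the 9 genes (FOS, FOSB, JUNB, ATF3 and EGR1), a share close to the 50.1% of all tested genes.

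**Figure D3:**
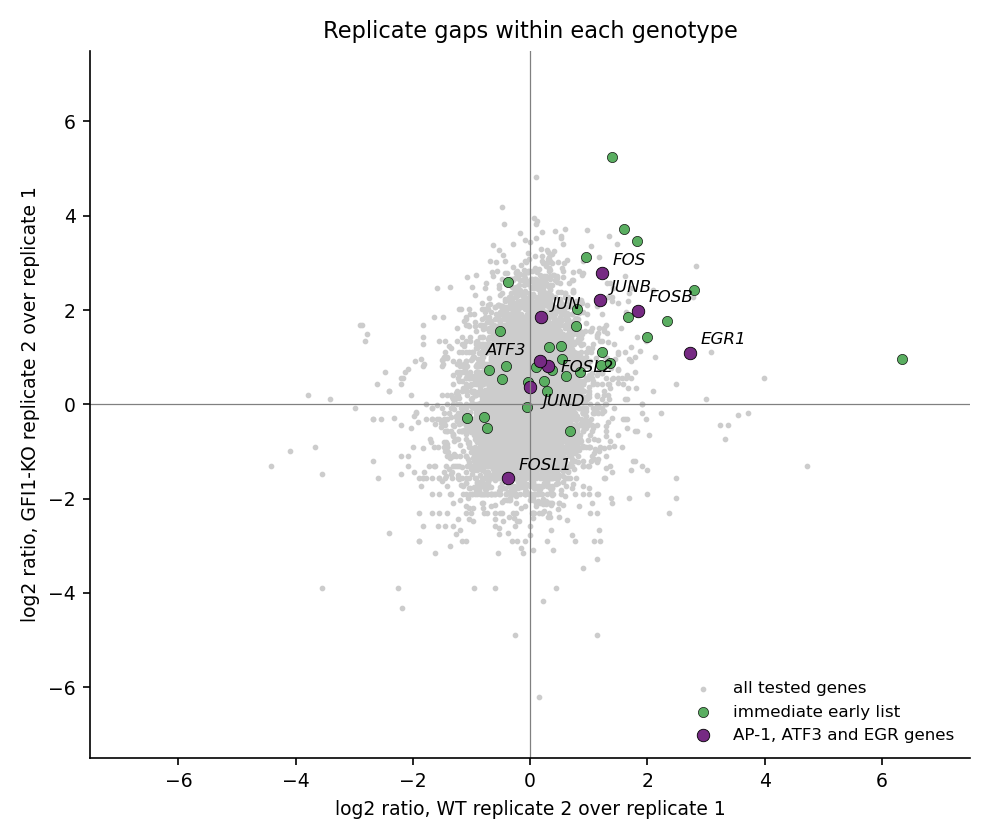
Log2 ratio of replicate 2 over replicate 1 in GFI1-KO (vertical) against WT (horizontal) for each of 11380 tested genes (grey), with the immediate early list in green and the AP-1, ATF3 and EGR genes in purple; a count of 0 was set to 0.5. FOS, FOSB, JUNB and EGR1 lie to the upper right, at 1.23, 1.84, 1.20 and 2.73 in WT, while JUND lies near the origin and FOSL1 to the lower left.

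Per length, JUND was the most abundant of the 10 genes in each library. On a scale of CPM per kilobase of GENCODE exon, JUND was at 114 ± 20.2 in GFI1-KO and 108 ± 0.354 in WT (SD, n = 2 each), and its lowest library (99.6) lay above the highest library of any other member (84.5, FOS). JUNB, FOS, JUN and EGR1 followed with 4-library means of 49.5, 43.8, 29.5 and 27.7 CPM per kilobase, and their ranges over libraries overlapped. FOSB (12.3), FOSL2 (6.78), FOSL1 (5.80) and ATF3 (2.65) came next, with ranges that overlapped between neighbours, and EGR2 was last at 0.568 CPM per kilobase. The 3 JUN genes summed to 272 and 582.2 CPM in GFI1-KO, against 335 and 416 CPM in WT. The 4 FOS genes summed to 106 and 430 CPM in GFI1-KO, against 176 and 366 CPM in WT. Both sums were lower in replicate 1 of each genotype.

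The gene spans in GRCh38 are as follows. FOS lies on chromosome 14 (75278774 to 75282230), FOSB, JUNB and JUND on chromosome 19 (45467995 to 45475179, 12791496 to 12793315 and 18279760 to 18281622), FOSL1 on chromosome 11 (65892049 to 65900573) and FOSL2 on chromosome 2 (28392448 to 28417312). JUN and ATF3 lie on chromosome 1 (58780788 to 58784327 and 212565334 to 212620777), EGR1 on chromosome 5 (138465490 to 138469315) and EGR2 on chromosome 10 (62811996 to 62919900). JUN, JUNB and JUND each consist of 1 exon block. Apart from JUNB, whose exons overlap HOOK2, the exons of these genes share no base with those of another GENCODE gene.

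Many other immediate early genes were also higher in replicate 2. Of 38 such genes, 34 were tested. Between genotypes 0 rose and 0 fell (6 at an unadjusted p under 0.05, 0 called by DESeq2), where 0.958% of all tested genes were called. The median log2 fold change was 0.38, beside -0.02 over all tested genes. Of the 34 values 29 were above 0, as were 5404 of all 11380. In WT, 11 of the 34 were at least 2-fold higher in replicate 2, where 1.91% of all tested genes were. The antiproliferative gene BTG2 alone was at least 2-fold lower (2.93% of all). Both exact intervals lay above 1 for 14 of the 34 (2.06% of all). The 11 genes, named after their values were seen, are CCN1, CCN2, DUSP1, EGR3, HES1, KLF2, KLF4, KLF6, NR4A1, NR4A2 and ZFP36. EGR3, the closest relative of EGR2 and EGR1 on the list, had 1 and 29 counts in GFI1-KO, against 0 and 43 counts in WT. The most abundant on the list were RHOB, IER2 and MCL1, with log2 fold changes of -0.12, -0.09 and 0.21. The summed level of the list was 2537 and 5113 CPM in GFI1-KO, against 2999 and 4404 CPM in WT.

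The genes whose pattern over the 4 libraries lay nearest to EGR1 were immediate early genes as well. Among 4752 genes averaging 50 CPM or more, by Euclidean distance on centred log2 CPM, the 3 nearest to EGR1 were NR4A1, KLF2 and ZFP36, at distances of 0.70, 0.93 and 1.09. NR4A1, an orphan nuclear receptor gene, was at 39.8 and 135 CPM in GFI1-KO and 21.4 and 109 CPM in WT. KLF2, a factor induced by laminar flow, was at 106 and 286 CPM in GFI1-KO and 70.6 and 282 CPM in WT. The 3 nearest to FOS were DUSP6, JUNB and CACNA2D1 (distances 0.38, 0.40 and 0.51), and those nearest to JUN were EXOC3L2, DNAJC1 and HECW2 (0.34, 0.41 and 0.43). DUSP6, a MAP kinase phosphatase gene, was at 66.2 and 322 CPM in GFI1-KO and 95.1 and 240 CPM in WT. With 4 libraries, a near pattern is a description of these libraries only.

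The kinases and factors upstream of these genes lay close together between the WT replicates. Of 22 tested, 0 rose and 0 fell (2 at an unadjusted p under 0.05, 0 called by DESeq2). Of all 11380 tested genes 0.958% were called, and 1064 had an unadjusted p under 0.05 in edgeR. The median log2 fold change was 0.12. Between the WT replicates 0 were 2-fold apart, where 1.91% of all tested genes were at least 2-fold higher in replicate 2 and 2.93% lower. ELK3 and MAP2K2, among the most abundant, had log2 fold changes of 0.18 and -0.16, and SRF, the serum response factor gene, was at 99.4 and 105 CPM in GFI1-KO and 83.1 and 119 CPM in WT. Of 16 tested genes of MAP kinase feedback, 0 passed, where 0.958% of all tested genes were called. At an unadjusted p under 0.05 there were 3 in edgeR and 1 in DESeq2, which called 0. The median of this list was 0.12. DUSP6 alone was at least 2-fold higher in WT replicate 2, where 1.91% of all tested genes were. SPRY4 and DUSP3, also among its 3 most abundant genes, had log2 fold changes of 0.70 (SE 0.23, edgeR adjusted p = 0.216) and -0.12. Of 23 tested genes for other leucine zipper partners, 0 passed, where 0.958% of all tested genes were called. At an unadjusted p under 0.05 there were 4 in edgeR and 2 in DESeq2, which called 0. The median of these partners was 0.32. ATF4, NFE2L1 and CREB3L2, the most abundant, had log2 fold changes of 0.11, 0.08 and 0.40.

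Genes reported elsewhere as AP-1 or EGR targets held a single call. Of 22 tested, HBEGF rose and 0 fell, where 0.773% of all tested genes rose and 0.185% fell. The median log2 fold change was 0.27. HBEGF, which encodes a ligand of the EGF receptor, had 1 and 38 counts in GFI1-KO and 6 and 5 counts in WT (log2 fold change 2.67, SE 0.58, edgeR adjusted p = 0.0372). The low-count filter scales its minimum count of 10 to depth, and both WT libraries lay under it. HBEGF was thus tested only through GFI1-KO, the group where it was high, with replicate 1 on 1 count. Its call is therefore no separate evidence about the list. DESeq2 called 0 of the 22, with 3 at an unadjusted p under 0.05. The most abundant of the list, VIM, FLT1 and MMP14, did not pass. In WT, 2 of the 22 were at least 2-fold higher in replicate 2, where 1.91% of all tested genes were. At least 2-fold lower were 3 of the 22 (2.93% of all).

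**Figure D4:**
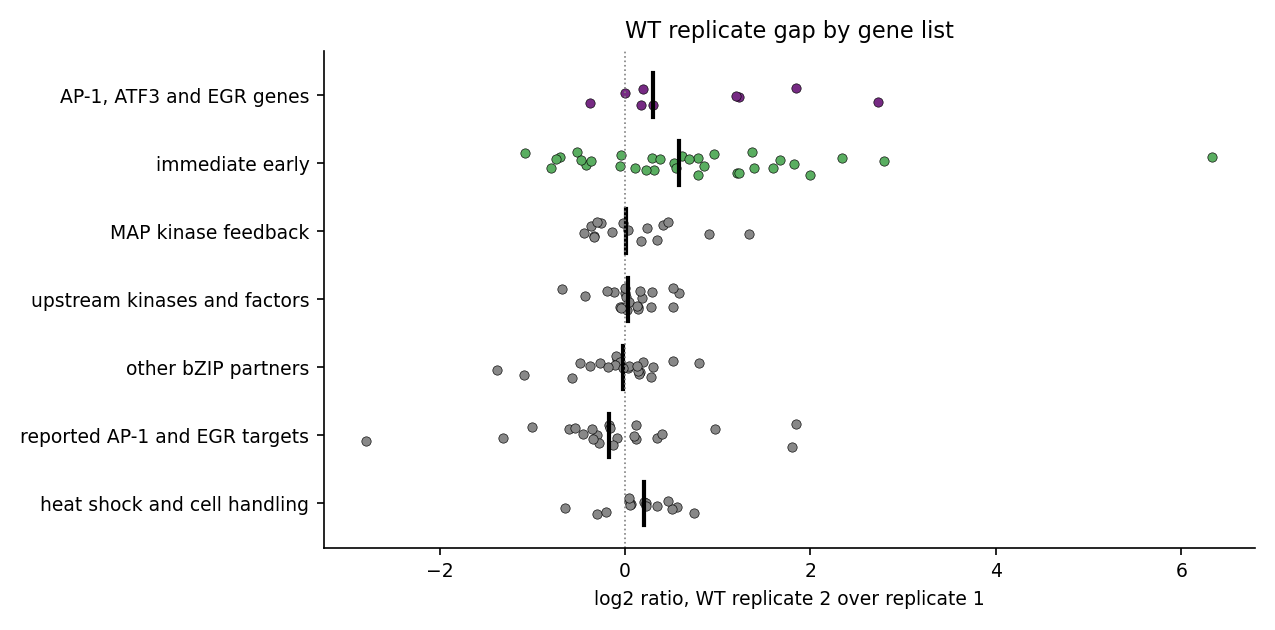
Log2 ratio of WT replicate 2 over replicate 1 for the tested genes of 7 lists, each point a gene, the black bar the median of the list and the dotted line the median of all tested genes; a count of 0 was set to 0.5. The medians of the AP-1, ATF3 and EGR genes and of the immediate early list are 0.30 and 0.58, and those of the upstream and feedback lists are 0.04 and 0.01.

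Some other measures also differed between replicates. Heat shock and cell-handling genes, 15 tested, had 0 calls by edgeR or DESeq2 (1 at an unadjusted p under 0.05 in each). Of all tested genes edgeR called 0.958%. The median log2 fold change of these 15 was -0.21. They summed to 6604 and 9839 CPM in GFI1-KO and 9446 and 11210 CPM in WT. They were higher in replicate 2 in 12 of 15 cases in GFI1-KO and in 12 of 15 in WT, where 6291 and 5655 of all 11380 tested genes were. The 8 blood markers summed to 26.5 and 30.3 CPM in GFI1-KO and 46.9 and 83.1 CPM in WT. In GFI1-KO replicate 1 that sum was 4 counts of LCP1, and LCP1 was at 26.5 and 16.9 CPM in GFI1-KO and 20.5 and 41.5 CPM in WT. The median log2 ratio of replicate 2 over replicate 1 of the 4 tested blood markers was -0.19 in GFI1-KO and 0.77 in WT. SPN, ITGA2B and SPI1 had 0 counts in GFI1-KO replicate 1, so their ratios there rested on a substituted count. The LCP1 ratio in GFI1-KO was 0.638 (0.230 to 2.46), and its interval held 1. The GFI1-KO median therefore cannot show whether this list moved with the gap. The depth of GFI1-KO replicate 1 also differs from that of the rest. The part of handling, blood cells or depth in the gap was not tested.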

How the data were processed

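Trizol extraction and TruSeq library preparation from total RNA are given per the labels' protocols. The authors deposited raw read counts per Ensembl gene, whole numbers with 1 column per library. Tools named per the submitters' processing notes are HTSeq 0.6.0, HISAT2 2.0.4, DESeq 1.18.1 and SAMtools 1.3.1, with GRCh38. The sources used here give no roles, annotation version, read filters or strand setting. Of 19912 identifiers 19784 matched the name table and 19902 GENCODE release 29, which gave exon lengths and overlaps.

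Counts were tested with edgeR 4.0.16 in R 4.3.3 (TMM, filterByExpr with minimum count 10 and total 15, glmQLFit and glmQLFTest, genotype as the term, Benjamini-Hochberg over 11380 genes, threshold 0.05). A positive log2 fold change means higher in GFI1-KO (prior count 0.125). SE is the unshrunken log2 fold change over the square root of F. Ratios of 2 libraries carry exact conditional binomial 95% intervals. The fit was tested on simulated data. Of 13 gene lists, all 197 entries were found. The members and lists were chosen with earlier results of these data known. Named genes are the members, GFI1, GATA2, called list genes, the 3 most abundant per list (the text draws from these) and the 3 nearest patterns; some are not reported here. The alternatives were 11: the newer dispersion, DESeq2 1.42.0, 3 scalings, no filter, a replicate block and each library left out.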

Additional observations from a re-analysis of the deposited data

How the results depend on the processing

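Of 11380 genes 109 were called, and the count was 58 with the newer dispersion, 33 with DESeq2, 58 with upper-quartile scaling, 72 with library totals only, 305 with no low-count filter and 327 with the replicate block, and 62 to 373 with 1 library left out. The count of AP-1, ATF3 and EGR genes called was 0 in each of the 7 alternatives that kept all 4 libraries. With 1 library left out, which members were called depended on the library, and such fits leave 1 genotype with 1 library. Without GFI1-KO replicate 1 the log2 fold changes of FOS, JUN, EGR1 and JUNB were 1.10, 1.13, 1.01 and 0.82. Without GFI1-KO replicate 2 the same 4 were at -1.67, -0.71, -0.079 and -1.38. EGR1 was at 2.67 without WT replicate 2. For the immediate early list it was 3 with no filter (KLF4 and KLF6 higher, MYC lower), 1 with the replicate block (MYC lower), 1 to 9 with 1 library left out, and 0 otherwise. FOSB turned to -0.054 with DESeq2 and -0.092 with the replicate block, and ATF3 to 0.0043 with the newer dispersion. With 1 library left out, log2 fold changes ran from -1.67 to 1.32 for FOS, -1.41 to 1.41 for FOSB, -1.54 to 0.035 for FOSL1, -0.71 to 1.13 for JUN, -1.38 to 1.12 for JUNB, -0.11 to 0.24 for JUND, -0.83 to 0.068 for ATF3 and -0.079 to 2.67 for EGR1. FOSL2 stayed below 0 in each alternative. Beyond the construction of each alternative the cause was not tested. The replicate ratios moved by less than their counting intervals under RLE scaling and library totals only; upper-quartile scaling was not run for them. Replicate numbers are shared by the genotypes, but the labels tie them to no culture or day. The deviations of replicate 1 in the genotypes correlated at 0.247 over 4753 genes of at least 50 CPM, which with 2 pairs is a hint from the data and not the design. Depth limits GFI1-KO replicate 1, where the tested members had 1 to 28 counts.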

Other observations

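Some genes of the immediate early list ran against the replicate gap in WT, where 24 of the 34 tested were higher in replicate 2. All were chosen after their values were seen. BTG2, an antiproliferative gene and p53 target, was at 46.4 and 37.8 CPM in GFI1-KO and 61.2 and 28.96 CPM in WT. ID1, an inhibitor of basic helix-loop-helix factors induced by BMP signals, was at 364 and 304 CPM in GFI1-KO and 354 and 204 CPM in WT. In WT, replicate 2 was 0.473 times replicate 1 for BTG2 (exact 95% interval 0.349 to 0.637) and 0.577 times for ID1 (0.514 to 0.647). In GFI1-KO the ratios were 0.816 (0.379 to 2.09, on 7 counts in replicate 1) and 0.833 (0.633 to 1.12), and both intervals held 1. The WT interval also lay below 1 for IER5L (ratio 0.599), GADD45A (0.616), SGK1 (0.70) and IER5 (0.72). In GFI1-KO the SGK1 ratio was 2.94 (1.71 to 5.56), and the intervals of IER5L, GADD45A and IER5 held 1.

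MYC and MAF were also chosen after their values were seen. MYC, a growth-promoting factor of the list, was at 0 and 28.9 CPM in GFI1-KO and 46.4 and 90.2 CPM in WT. Both of its GFI1-KO libraries lay below both WT libraries, as for 22.7% of all tested genes. Its WT replicates differed as those of FOS did. The log2 fold change was -1.44 (SE 0.41, edgeR adjusted p = 0.135). It passed with the replicate block (-1.80, edgeR adjusted p = 1.54e-05), with no low-count filter (-1.45, edgeR adjusted p = 0.000842), without WT replicate 1 (-1.90, edgeR adjusted p = 0.00453) and without GFI1-KO replicate 1 (-1.24, edgeR adjusted p = 0.00291). It also passed without GFI1-KO replicate 2 (edgeR adjusted p = 0.000957), where the remaining GFI1-KO library held 0 counts and the fitted fold is no bound. It did not pass with DESeq2, with the newer dispersion, with any of the 3 other scalings or without WT replicate 2. The leucine zipper gene MAF had both GFI1-KO libraries above both WT libraries, as for 8 of the 23 tested genes of its list and 18.6% of all. It was at 139 and 77.9 CPM in GFI1-KO and 44.2 and 39.0 CPM in WT (log2 fold change 1.15, SE 0.29, edgeR adjusted p = 0.0757).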
